A study of Mus musculus with 18 samples.

Results

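The lysosome genes described here are 36 genes fixed by symbol: 13 subunits of the vacuolar H+-ATPase (V-ATPase), 9 cathepsins, and 14 hydrolases, activators, lipid transporters, membrane proteins and regulators. All 36 were found among the 35642 gene symbols of the deposited table, and 35 had enough transcript to be tested. The exception was Ctss, which encodes cathepsin S, a protease of antigen-presenting cells, and which was listed at 0 in all 18 libraries. RNA was measured in cultured lines from pancreatic tumours of KPCY mice (KrasLSL-G12D/+, Trp53 LSL-R172H/+, Pdx1-Cre and an R26 LSL-Yfp reporter), with or without a floxed Mcu, the gene of the mitochondrial calcium uniporter.

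Line 1151 gave 2 groups of 3 libraries, both labelled Mcu Cre knockout: one carried an empty vector (here "labelled knockout") and the other re-expressed MCU ("re-expressing"), and both grew in 2 µg/mL puromycin. Line 2838 gave 4 groups of 3 libraries, each from 1 clone: wild-type clones 15 and 22, which carried an empty vector, and CRISPR knockout clones 17 and 42. All cells were untreated and grew in DMEM with 10% FBS. The lines are separate batches in the labels (1151 is batch 1 and 2838 is batch 2), so a difference in level between them cannot be told apart from the batch. Separate cultures are not stated for the 3 libraries within a group. The p-values therefore measure the spread between libraries, which may be technical.

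A lysosome degrades proteins, glycans and lipids in an acidic lumen. The V-ATPase makes the lumen acidic: its cytosolic V1 sector hydrolyses ATP and its membrane V0 sector carries the protons. Cathepsins are the proteases of the lumen, glycosidases and lipid hydrolases cut sugars and lipids, and LAMP proteins line the membrane. Transcription factors of the MiT/TFE family, among them TFEB, bind an E-box (CACGTG) in the promoters of many of these genes, and pancreatic tumours are known for high activity of this program.

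The E-box is shown here in promoters of members whose RNA was lower in one or both lines, because the counts below are also given for members with and without it. RefSeq promoters (GRCm38.p6, 250 bases before to 50 bases after the start site) matched 28 of the 36 genes. The core TCACGTG, searched on both strands, lay in 10 of these 28 genes (35.7%), against 4.29% of 27025 genes with promoters of the same length. The shorter CACGTG, which is contained in the core, lay in 12 of 28 (42.9%), against 8.09% of all genes. Below are the 250 bases before the start site of Lamp1 (chr8:13158911-13159160, plus strand), Mcoln1 (chr8:3500269-3500518, plus strand), Ctsd (chr7:142387828-142388077, minus strand), Atp6v0b (chr4:117887330-117887579, minus strand) and Grn (chr11:102430257-102430506, plus strand). Each is written 5′ to 3′ on the gene's strand, with CACGTG in capitals. Grn is included because it was called lower in 1151 and in each contrast of a knockout with a wild-type clone of 2838. It was not called on the clone means of 2838.
Lamp1: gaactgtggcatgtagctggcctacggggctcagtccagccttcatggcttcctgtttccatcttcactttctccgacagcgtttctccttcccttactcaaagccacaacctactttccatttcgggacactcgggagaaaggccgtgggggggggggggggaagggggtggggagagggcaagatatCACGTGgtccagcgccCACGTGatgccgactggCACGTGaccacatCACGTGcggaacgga
Mcoln1: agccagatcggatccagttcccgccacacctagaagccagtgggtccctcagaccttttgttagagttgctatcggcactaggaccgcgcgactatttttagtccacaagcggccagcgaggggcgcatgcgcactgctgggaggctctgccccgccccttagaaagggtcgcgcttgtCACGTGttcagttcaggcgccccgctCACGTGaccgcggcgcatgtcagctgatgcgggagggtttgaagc
Ctsd: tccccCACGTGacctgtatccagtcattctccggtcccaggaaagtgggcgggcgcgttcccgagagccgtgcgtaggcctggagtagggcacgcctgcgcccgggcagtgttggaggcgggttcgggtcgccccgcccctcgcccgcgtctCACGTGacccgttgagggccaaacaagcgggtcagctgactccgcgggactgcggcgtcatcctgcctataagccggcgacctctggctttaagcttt
Atp6v0b: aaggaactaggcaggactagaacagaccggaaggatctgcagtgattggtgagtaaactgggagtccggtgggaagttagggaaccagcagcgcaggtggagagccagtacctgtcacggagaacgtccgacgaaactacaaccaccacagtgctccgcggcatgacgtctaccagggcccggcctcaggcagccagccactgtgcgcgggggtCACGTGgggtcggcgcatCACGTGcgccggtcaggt
Grn: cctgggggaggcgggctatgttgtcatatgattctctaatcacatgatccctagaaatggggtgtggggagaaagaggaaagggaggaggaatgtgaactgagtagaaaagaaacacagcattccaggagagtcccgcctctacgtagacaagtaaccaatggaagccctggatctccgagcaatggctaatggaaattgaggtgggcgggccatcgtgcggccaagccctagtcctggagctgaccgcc
Lamp1 held 4 E-boxes, beginning 61, 45, 28 and 15 bases before its start site. Mcoln1 held them at 71 and 45 bases, Ctsd at 245 and 98 bases, and Atp6v0b at 36 and 18 bases. The letters did not occur in the Grn window. A match is a description of the sequence, and binding was not measured.

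The targeted gene was read first. Mcu was at 14.4, 15.2 and 13.2 TPM (a relative transcript level already divided by transcript length) in the re-expressing libraries of 1151 and at 16.6, 15.1 and 13.3 TPM in those labelled knockout, so its RNA did not follow the labels there. In 2838 it was at 68.4 to 81.2 TPM in wild-type clone 15, 59.3 to 96.3 TPM in wild-type clone 22 and 10.5 to 12.3 TPM in clone 42. Clone 17, labelled knockout, had the highest level, 113 to 122 TPM. Every direction drawn from clone 17 and from 1151 below rests on the label, and MCU protein is not part of these data. Ductal epithelial markers were abundant (9 of 10 at 1 TPM or more in at least 3 libraries, summed 4896 to 7442 TPM). The exception was Epcam, at 1.68 TPM at most. Fibroblast markers were nearly absent (0 of 9, summed 0.203 to 1.05 TPM). Of 12 macrophage and leukocyte markers only Cd68 reached 1 TPM in at least 3 libraries, and 2 did in any library. That list summed to 1.58 to 6.33 TPM, with Adgre1, Tyrobp, C1qa, C1qb and Cd52 at 0. The third library of wild-type clone 22 stood apart, with an upper quartile of 3.73 TPM over all genes, while its clone's first and second libraries had 7.54 and 7.45 TPM. In it 14 lysosome genes lay more than 0.5 on the log2 scale from the mean of its 2 partners, against 0 to 3 genes in any other library.

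The lysosome genes together made up 5410 to 6979 TPM of the summed TPM of a library. Cd63, a tetraspanin of lysosomes and exosomes, had the highest median, 612 TPM, with a range of 498 to 1365 TPM. It did not lead in every group: in clone 42 its mean was 592 TPM, against 663 TPM for Atp6v0c. Next by median over the 18 libraries came Atp6v0c, the proteolipid of the proton-carrying ring (538 TPM), Lamp1 (517 TPM) and the aspartic protease gene Ctsd (403 TPM). At the other end, Ctsf had a median of 1.99 TPM, Gla 7.22 TPM and Tfeb 10.5 TPM. All 6 libraries of 1151 lay above all 12 of 2838 for Atp6v0b, Atp6v1d, Cd63 and Gla, and all below for Atp6v1b2, with all other members overlapping. Over all genes 6.59% lay wholly above and 8.92% wholly below.

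In line 1151 most lysosome genes that differed were lower in the cells labelled knockout. Each change below is the log2 difference of TPM plus 1 between labelled knockout and re-expressing libraries with its standard error (n = 3 in each group), and a gene is called where the limma adjusted p is under 0.05. Of 35 genes tested, 22 were called, a share close to the 61.0% of all genes that were called in this line. By direction 6 members rose and 16 fell, while 34.0% of all genes rose and 27.0% fell. The lean of all genes depended on the scaling, with 3958 higher and 3140 lower as deposited, 3506 and 3613 with median-of-ratios scaling, and 3362 and 3388 after centring per chromosome. The members were 5 higher and 19 lower, and 5 and 17, under the same settings. The median change was -0.23 over the members and 0.05 over all genes tested. Groups did not overlap for 9 genes that were higher and 17 that were lower (37.4% and 29.8% of all genes, 67.2% in either direction). Of changes of at least 0.5, 4 were upward and 11 downward, against 20.9% and 16.5% of all genes. In bulk RNA, fewer cells of a type and less RNA per cell cannot be told apart.

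**Figure D1:**
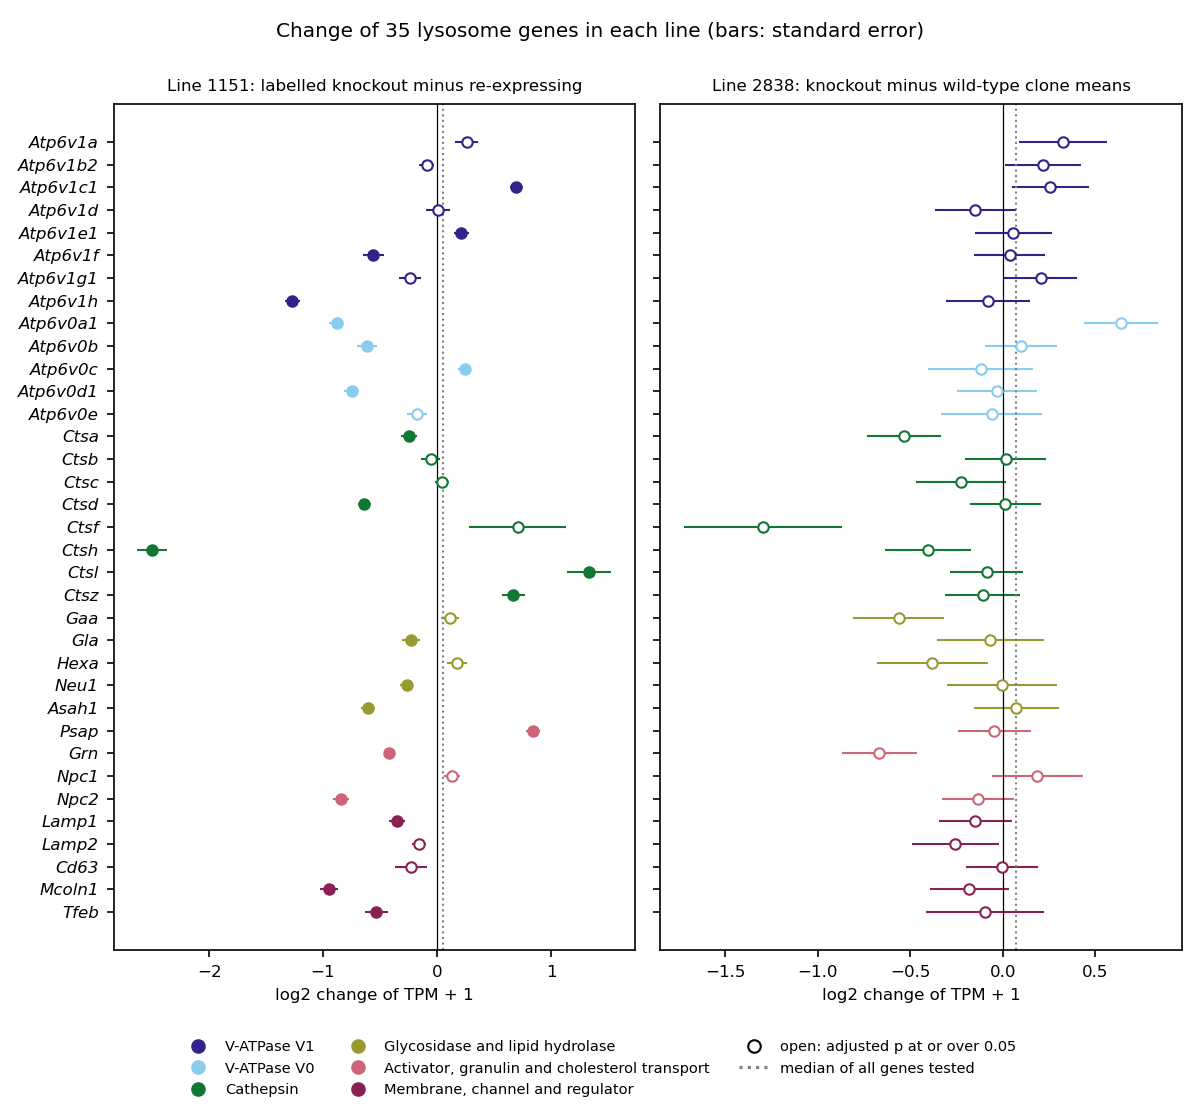
Log2 change of TPM + 1 (x axis) with its standard error for each of the 35 tested lysosome genes (rows), in line 1151 at left (labelled knockout minus re-expressing) and line 2838 at right (knockout minus wild-type clone means); filled points have an adjusted p under 0.05 and the dotted line is the median of all genes tested. At left 6 filled points lie above 0 and 16 below, with Ctsh at -2.50 and Ctsl at 1.33; at right no point is filled.

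The V1 sector of the V-ATPase split in 1151, with 2 of 8 subunits called higher and 2 lower (25% each, all genes 34.0% and 27.0%). Atp6v1h, the H subunit that regulates the coupling of the sectors (chr1:5070018-5162529 in mm10, by GENCODE M21, as for all positions below), was at 58.2, 64.7 and 56.8 TPM in the re-expressing libraries and at 24.6, 23.3 and 24.8 TPM in those labelled knockout. The groups did not overlap, and the spread within each was small beside the distance between them (-1.27 ± 0.07 SE, adjusted p = 1.05e-05). Atp6v1f, a subunit of the central stalk, fell from a mean of 357 ± 13.8 TPM to 243 ± 31.0 TPM (SD, n = 3), a change of -0.56. Atp6v1c1, a subunit at the join of the sectors, went the other way, from 55.5, 55.7 and 52.7 TPM to 88.7, 85.3 and 93.5 TPM (0.70 ± 0.06, adjusted p = 6.56e-05). Atp6v1e1, part of the outer stalk, was higher by 0.21 (adjusted p = 0.0268), a call that ended without replicate 1 or 2 labelled knockout or replicate 1 or 3 re-expressing, and with median-of-ratios or quantile scaling. The genes of the nucleotide-binding head did not pass: Atp6v1a, the catalytic A subunit, was at 0.26 (adjusted p = 0.0644), and Atp6v1b2, a non-catalytic B subunit, at -0.09 (adjusted p = 0.281). The stalk genes Atp6v1d and Atp6v1g1 were at 0.01 and -0.23 (adjusted p = 0.952 and 0.0693).

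In the V0 sector 3 of 5 subunits fell and 1 rose (60% and 20%, all genes 27.0% and 34.0%). Atp6v0a1, the a1 form of the large membrane subunit (chr11:101009452-101063719), was at 84.4, 88.6 and 86.0 TPM in the re-expressing libraries and at 44.8, 44.6 and 50.2 TPM in those labelled knockout. No library of one group reached the other group (-0.88 ± 0.06, adjusted p = 3.97e-05). Atp6v0d1, the subunit that couples ring and stalk, fell from 73.7 ± 2.42 to 43.5 ± 2.96 TPM (SD, n = 3; -0.75). Atp6v0b, a ring subunit, fell from 359 ± 19.2 to 234 ± 24.9 TPM (-0.62). Atp6v0c, the main ring subunit, was higher, at 599, 631 and 642 TPM against 542, 529 and 508 TPM (0.24 ± 0.06, adjusted p = 0.0085), and Atp6v0e did not pass (-0.17, adjusted p = 0.129). Summed over each sector, V1 transcripts were at 889 to 913 TPM in re-expressing and 761 to 839 TPM in labelled knockout libraries, and V0 transcripts at 1277 to 1384 and 1172 to 1243 TPM. Both sums were lower in every labelled knockout library, while single subunits moved both ways.

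**Figure D2:**
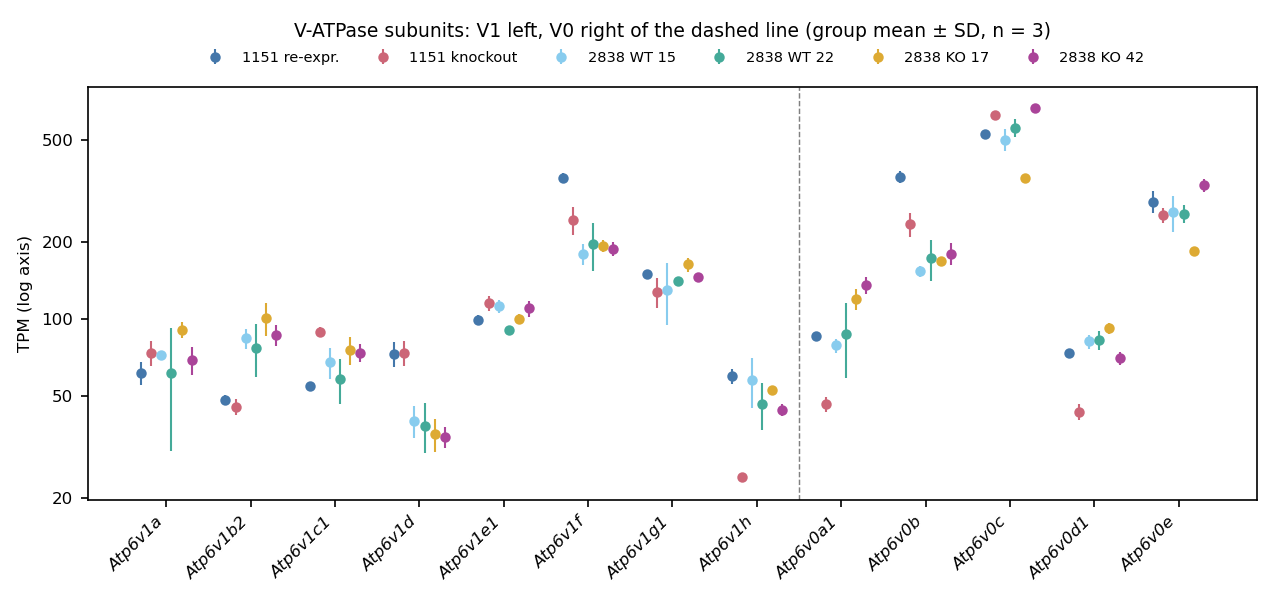
Level of each V-ATPase subunit (x axis) in TPM on a log axis, as the mean and SD of 3 libraries for each of the 6 groups (colours), with V1 subunits left and V0 subunits right of the dashed line. The 1151 labelled knockout points lie lowest of the 6 groups for Atp6v1h, Atp6v0a1 and Atp6v0d1. They also lie lowest, by less, for Atp6v1b2 and Atp6v1g1, which were not called in 1151. Clone 17 lies lowest for Atp6v0c and Atp6v0e.

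Other V-ATPase genes were read from a list of 21 isoforms and accessory subunits. Of these 14 were tested in 1151, and 6 rose and 2 fell (42.9% and 14.3%, all genes 34.0% and 27.0%). Atp6v0e2, the second form of the e subunit, had the largest rise, from 4.97, 7.27 and 3.86 TPM to 30.2, 24.7 and 31.6 TPM (2.26 ± 0.20, adjusted p = 8.97e-05). Tcirg1, which encodes the a3 form of the large membrane subunit, was at 39.1 TPM in re-expressing and 58.6 TPM in labelled knockout libraries (0.57), opposite in direction to the a1 form. Oxr1 and Dmxl1, linked to regulation of V-ATPase assembly, were higher by 0.50 and 0.45, and Ncoa7 and the accessory subunit gene Atp6ap2 were lower (-0.37 and -0.31). After each library was centred per chromosome, the changes of Tcirg1 and Oxr1 were both 0.05 and no longer called.

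The largest changes among the 36 genes were in cathepsins. Of 8 tested in 1151, 2 rose and 3 fell (25% and 37.5%, all genes 34.0% and 27.0%). Ctsh, a cysteine aminopeptidase (chr9:90054152-90076089), was at 414, 351 and 395 TPM in the re-expressing libraries and at 75.2, 55.1 and 73.7 TPM in those labelled knockout. Every labelled knockout library lay far below every re-expressing one (-2.50 ± 0.13, adjusted p = 9.24e-06). Ctsl, a cysteine endopeptidase (chr13:64359337-64370890), was at 183, 182 and 208 TPM and at 598, 543 and 346 TPM. It was higher in all 3 labelled knockout libraries, with the third well below the other two (1.33 ± 0.20, adjusted p = 0.00102). Ctsd, the main aspartic protease (chr7:142375911-142388038), was at 509, 508 and 481 TPM and at 304, 325 and 333 TPM, again without overlap (-0.64 ± 0.06, adjusted p = 0.000108).

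Ctsz, a carboxypeptidase, rose from 80.2 ± 6.66 to 129 ± 16.9 TPM (SD, n = 3; 0.67). Ctsa, the carboxypeptidase that protects neuraminidase, fell by a smaller step, from 133 ± 2.33 to 112 ± 9.78 TPM (-0.25, adjusted p = 0.0207). Leaving out any 1 of the 3 re-expressing libraries ended the call of Ctsa (adjusted p = 0.0519 to 0.0689), and its direction stayed the same. Ctsb and Ctsc, both abundant proteases, were at -0.06 and 0.04 (adjusted p = 0.583 and 0.538). Ctsf was near the limit of measurement, at 1.13 to 3.86 TPM and 2.11 to 7.53 TPM, and did not pass (0.71 ± 0.43, adjusted p = 0.189).

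**Figure D3:**
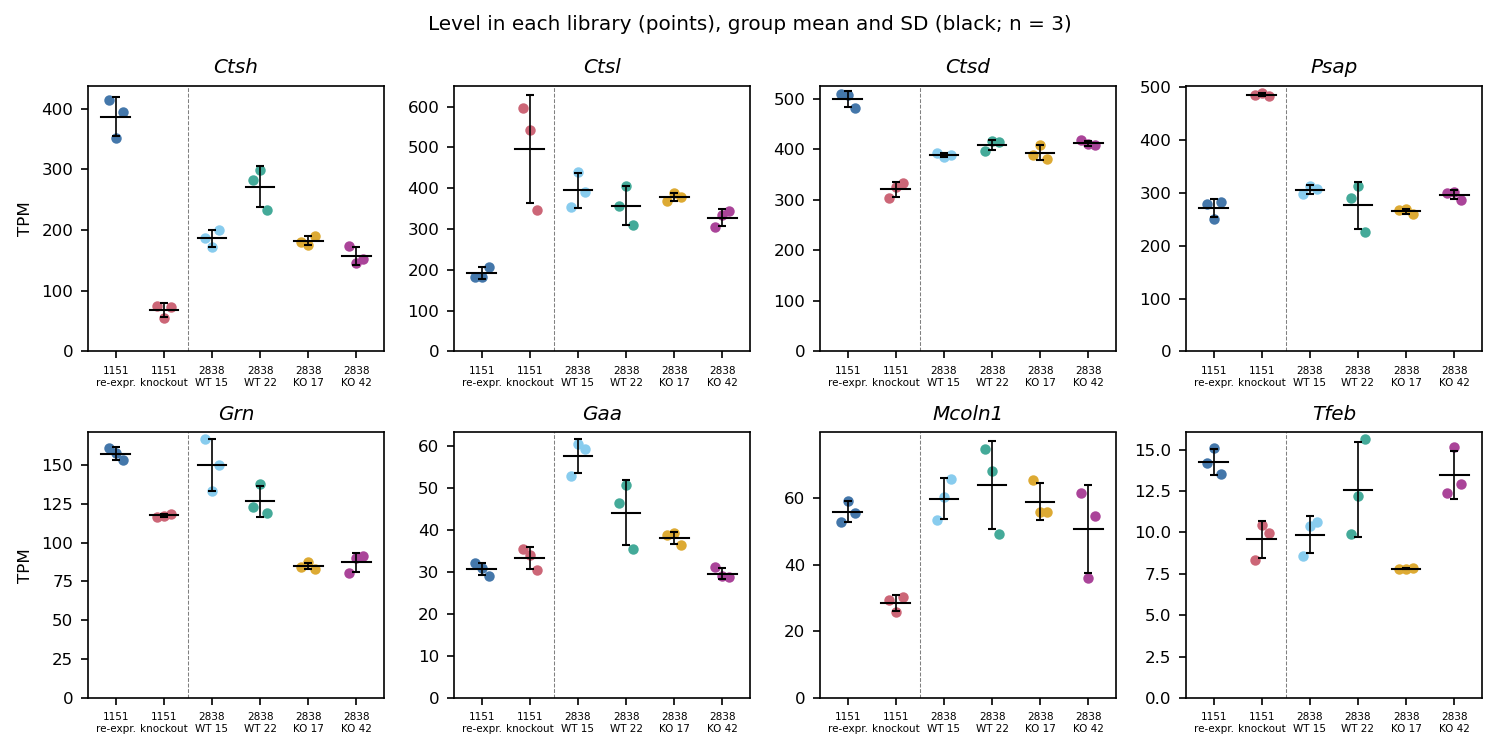
Level in TPM (y axis, from 0) of 8 lysosome genes in each of the 18 libraries (points), with the mean and SD of the 3 libraries of each group in black and a dashed line between line 1151 and line 2838. Ctsh falls from 351 to 414 TPM in re-expressing to 55.1 to 75.2 TPM in labelled knockout libraries of 1151, and Grn lies lower in the knockout groups of both lines.

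No glycosidase or lipid hydrolase among the members was called higher in 1151, and 3 of 5 were called lower. These 60% stand beside 27.0% of all genes called lower, and 61.0% called in either direction. Asah1, acid ceramidase (chr8:41340197-41374773), was at 203, 217 and 206 TPM and at 146, 136 and 130 TPM (-0.61 ± 0.06, adjusted p = 0.000177). Neu1, the lysosomal sialidase, was lower by a smaller amount, at 101, 104 and 100.3 TPM against 89.4, 84.3 and 80.4 TPM (-0.26). Gla, alpha-galactosidase A, was at 11.5 ± 0.812 and 9.68 ± 0.478 TPM (-0.23, adjusted p = 0.0449), and its call ended without replicate 2 or 3 labelled knockout or replicate 1 or 2 re-expressing. The groups of these 3 genes did not overlap. Hexa, a subunit of beta-hexosaminidase, and Gaa, which degrades glycogen, were at 0.18 and 0.11 (adjusted p = 0.124 and 0.233).

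Psap, the precursor of the saposins that present sphingolipids to hydrolases (chr10:60277627-60302597), was at 280, 251 and 283 TPM in re-expressing and at 485, 489 and 483 TPM in labelled knockout libraries. This was the largest rise among members outside the cathepsins (0.84 ± 0.06, adjusted p = 4.27e-05). Grn, progranulin, a chaperone-like precursor delivered to lysosomes (chr11:102430315-102437048), was at 161, 157 and 153 TPM and at 116, 117 and 119 TPM. All labelled knockout libraries lay below all re-expressing ones (-0.42 ± 0.05, adjusted p = 0.00029). Npc2, the soluble carrier of cholesterol, fell from 92.9 ± 1.93 to 51.4 ± 4.19 TPM (SD, n = 3; -0.84). Its membrane partner Npc1 was at 22.3 and 24.5 TPM (0.13, adjusted p = 0.158).

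All 5 membrane, channel and regulator genes had a negative change in 1151, and 3 were called (60%). Of all genes 27.0% were called lower and 61.0% in either direction. Mcoln1, the lysosomal calcium channel TRPML1 (chr8:3500457-3515232), was at 53.0, 59.3 and 55.4 TPM and at 29.4, 25.9 and 30.4 TPM, with no overlap (-0.95 ± 0.08, adjusted p = 7.23e-05). Tfeb itself (chr17:47737030-47792419) was at 14.2, 15.1 and 13.5 TPM and at 8.33, 10.5 and 9.96 TPM (-0.53 ± 0.10, adjusted p = 0.00302). Lamp1, the main glycoprotein of the lysosomal membrane, was at 513, 534 and 516 TPM and at 429, 423 and 375 TPM (-0.35 ± 0.07, adjusted p = 0.00371). Lamp2 was at -0.16 (adjusted p = 0.0533), its groups not overlapping. Cd63 was at -0.23 (adjusted p = 0.187), with labelled knockout libraries spread from 930 to 1363 TPM.

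Grouped by promoter, the 10 genes with TCACGTG included 0 that rose and 7 that fell in 1151, with a median change of -0.30. The 17 tested members whose promoter windows lacked it included 5 that rose and 6 that fell (median 0.01). Among those 17, Ctsl and Ctsf hold the shorter CACGTG. Ctsl was called higher (1.33) and Ctsf did not pass (0.71). Over all genes tested, those with TCACGTG split into 32.3% higher and 27.2% lower (657 genes), and those without into 34.8% and 27.4% (8409 genes). Of the 7 that fell, Atp6v0d1, Lamp1 and Mcoln1 lie on chromosome 8, where the median change of all genes was -0.28. Lamp1 lost its call after centring per chromosome, and Ctsa and Gla lost theirs on leaving out single libraries. Atp6v0b, Atp6v0d1, Ctsd and Mcoln1 kept their calls under both. The members were chosen as lysosome genes, and the difference between these groups of genes was not tested.

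Chromosomes moved as blocks in 1151, which touches several of these values. The 626 genes tested on chromosome 8 had a median change of -0.28, with 26.8% positive, and all 5 members there (Atp6v1b2, Atp6v0d1, Asah1, Lamp1 and Mcoln1) had negative changes. Medians were 0.34 on chromosome 10, 0.45 on 15, 0.31 on 17 and 0.52 on 19. With each library centred per chromosome, Lamp1 went from -0.35 to -0.07 and was no longer called (adjusted p = 0.402), while Atp6v0d1, Asah1 and Mcoln1 remained called at -0.47, -0.33 and -0.67. Psap on chromosome 10 went from 0.84 to 0.50 and Atp6v1c1 on chromosome 15 from 0.70 to 0.25, both still called. The calls of Atp6v0c and Atp6v1e1 ended, both at -0.07. In the other direction, Tfeb and Neu1 on chromosome 17 went from -0.53 to -0.85 and from -0.26 to -0.58, and Cd63 and Atp6v0e became calls at -0.57 and -0.49. On chromosome 8, Atp6v1b2 turned from -0.09 to 0.19 and became a call (limma adjusted p = 0.0496). What the chromosome medians contribute to the changes was not tested further. Markers of endothelium (3 of 6 at 1 TPM or more: Cdh5, Kdr and Egfl7, none of the 6 at 0 throughout) also differed between the groups, not in 1 direction: Kdr was higher in labelled knockout libraries (2.43), and Cdh5 and Egfl7 were lower (-2.56 and -1.60). The list summed to 35.9 to 38.0 TPM in re-expressing and 17.7 to 18.9 TPM in labelled knockout libraries, and its part in the result was not tested. Of 9 ductal markers tested 5 were called higher and 3 lower (88.9%, against 61.0% of all genes). Their part was not tested either.

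Companion genes of the lysosome were read from lists in the same way in 1151. Of 195 listed genes 194 were in the table and 171 were tested. Of these 40 rose and 59 fell (23.4% and 34.5%), with a median change of -0.08. Over all genes 34.0% rose and 27.0% fell, and the share called was 61.0%, against 57.9% of these companions. Among 12 proteases and inhibitors tested, 2 rose and 5 fell (16.7% and 41.7%). Ctse, an aspartic protease of foregut epithelium, had the largest fall of the named companions (-4.39). Cst3, the secreted inhibitor cystatin C, fell from 664 to 303 TPM (-1.13), and Scpep1 and Serpinb6a by smaller steps (-0.21 and -0.19). Tpp1, a tripeptidyl peptidase, rose by 0.27. The call of Tpp1 ended on leaving out any 1 library other than the third labelled knockout one, that of Serpinb6a without the third re-expressing library, and that of Scpep1 without replicate 2 labelled knockout or replicate 1 or 2 re-expressing.

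Of 39 further hydrolases and activators 6 rose and 19 fell (15.4% and 48.7%, all genes 34.0% and 27.0%). Gm2a, the activator that presents ganglioside GM2 to beta-hexosaminidase, was at 7.32, 6.52 and 8.07 TPM in re-expressing and at 71.4, 76.4 and 68.4 TPM in labelled knockout libraries. This was the largest rise among the named companions (3.14 ± 0.09, adjusted p = 7e-07). Ids and Arsb, which cut glycosaminoglycans, rose by 0.76 and 0.75. Falls were led by Galns (-1.49) and Manba (-1.48), by Lipa, the lysosomal acid lipase, from 163 to 72.8 TPM (-1.15), and by Dnase2a (-0.99). Among 33 membrane proteins 4 rose and 12 fell (12.1% and 36.4%). Tmem63a (0.63), Clcn7 (0.49), Ostm1 (0.48) and Sidt2 (0.47) led the rises. Slc37a3 (-1.12), Tmem106b (-0.92), Tmem192 (-0.73) and the endolysosomal channel gene Tpcn1 (-0.66) led the falls. Clcn7 and Ostm1, which encode the chloride exchanger and its partner, rose together, but after centring per chromosome their changes were 0.18 and 0.13 and neither was called.

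Of 18 genes of the sorting machinery 10 were higher and 4 lower (all genes 34.0% and 27.0%). Sort1, the sorting receptor sortilin, was at 1.30, 1.37 and 1.26 TPM and at 5.52, 5.95 and 6.17 TPM (1.57 ± 0.09, adjusted p = 1.45e-05). The adaptor gene Gga1 rose by 0.78, the clathrin heavy chain gene Cltc by 0.66 and Ap3d1 by 0.62. Ap1m1, Gga2 and the retromer genes Vps35 and Vps29 were lower (-0.41, -0.25, -0.37 and -0.35), though the call of Gga2 ended without replicate 1 or 2 of either group. Of 22 genes of TFE factors and nutrient sensing 2 rose and 10 fell (9.09% and 45.5%). The risers were Tsc2 (1.10) and Mtor (0.43), and Bloc1s1 (-1.19), Borcs6 (-0.84), Lamtor4 (-0.74) and Zkscan3 (-0.73) fell most. All 5 Lamtor genes, which encode the Ragulator platform for mTORC1 on the lysosome, were called lower, Lamtor1 by -0.45, Lamtor2 by -0.64, Lamtor3 by -0.59 and Lamtor5 by -0.40. They were singled out after their values were seen. Tfe3, the relative of Tfeb, did not pass (-0.05, adjusted p = 0.683).

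Of 33 autophagy and vacuole fusion genes 10 were higher and 7 lower (median 0.06). These are 30.3% and 21.2%, against 34.0% and 27.0% of all genes. Here members of the ATG8 family split: Gabarapl1 and Map1lc3a were higher (0.86 and 0.54) and Gabarap and Map1lc3b lower (-0.78 and -0.79). Gabarap was at 317, 331 and 331 TPM and at 187, 187 and 193 TPM, so its groups were far apart. Wipi1 and Wipi2, which act on the forming autophagosome, rose by 1.02 and 0.71, and Stx17 and Atg16l1 fell (-0.43 and -0.37). The call of Map1lc3a ended on leaving out any 1 library other than the first labelled knockout one.

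In line 2838 the same comparison was made over clones, since the clone carries the genotype: 2 knockout clone means against 2 wild-type clone means. With limma 0 of 35 lysosome genes were called, against 0.0763% of all genes (0.0254% higher and 0.0509% lower). Without adjustment 5 had p under 0.05: Atp6v0a1 (0.64), Ctsa (-0.53), Ctsf (-1.29), Gaa (-0.56) and Grn (-0.67), against 662 of 11795 genes. The median change was -0.07 over the members and 0.07 over all genes. A design of 2 clones against 2 leaves wide errors, with a standard error of 0.20 for Grn and 0.43 for Ctsf. Acinar and islet markers, carried by Cela1 alone (1 of 10 at 1 TPM or more, 7 of 10 at 0, among them Cpa1, Pnlip, Ins1 and Gcg), were summed to 16.5 to 29.3 TPM in wild-type and 9.21 to 13.6 TPM in knockout libraries. Their part in these changes was not tested.

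A second reading asked that each knockout clone differ from each wild-type clone in 1 direction, at limma adjusted p under 0.05 in all 4 contrasts, using the spread between libraries of a clone. Grn met it, as the 1 lower member, while 0.517% of all genes were lower and 0.492% higher by this measure, and 0 members were higher (1.01% of all genes were called in either direction). Grn was at 166, 133 and 149.6 TPM in wild-type clone 15 and at 123, 138 and 119 TPM in wild-type clone 22. It was at 84.3, 87.3 and 83.2 TPM in clone 17 and at 80.4, 89.8 and 91.2 TPM in clone 42. All 6 knockout libraries lay below all 6 wild-type libraries, and Grn was the 1 member of which this held (1.52% of all genes were wholly lower and 3.53% wholly higher, 5.04% together). Its 4 contrasts ran from -0.81 to -0.53, with adjusted p from 0.000908 to 0.0116. The call ended on leaving out replicate 1 or 3 of clone 17 or replicate 1 of clone 42, with 0 members lower in each case. In 1151 Grn was called lower too (-0.42), as were 27.0% of all genes, and the 2 lines share no libraries. With the spread between the 2838 clones as the error, the 1151 change of Grn was not called (limma adjusted p = 0.414).

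Near Grn stood Ctsa and Gaa. Ctsa was at 173, 181 and 187 TPM in clone 15, at 167, 190.3 and 114 TPM in clone 22, at 119, 125 and 114 TPM in clone 17 and at 101, 114 and 117 TPM in clone 42. Only the third library of clone 22 overlapped the knockout libraries. Gaa was at 53.0, 60.5 and 59.2 TPM, at 46.3, 50.6 and 35.5 TPM, at 38.8, 39.2 and 36.5 TPM, and at 31.1, 29.1 and 28.7 TPM in the same order of clones, with the same 1 library overlapping. Without that library 3 members were lower in all 4 contrasts, Ctsa, Gaa and Grn, against 2.41% of all genes. Gaa went from clone 15 downward to clone 42, and the differences between clones of 1 label did not pass (-0.39 for clone 22 against 15, -0.35 for clone 42 against 17).

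Clones were also compared singly. The pairs of 1 label (42 against 17, and 22 against 15) do not contain the label difference, and the other 4 pairs do. Clone 17 had 0 members higher and 8 lower against clone 15, where 10.7% of all genes were called, 5.18% higher and 5.53% lower. Against clone 22 it had 0 higher and 4 lower, where 6.49% of all genes were called, 3.79% higher and 2.70% lower. Clone 42 had 3 higher and 4 lower against clone 15 (12.3% of all genes, 6.07% higher and 6.22% lower). Against clone 22 it had 1 higher and 3 lower (10.3%, 5.78% higher and 4.54% lower). Between the clones labelled knockout, clone 42 had 4 members higher and 1 lower than clone 17 (17.2%, 8.23% higher and 8.99% lower). The wild-type clones differed at 1 member, Ctsh, higher in clone 22 at 282, 299 and 233 TPM than in clone 15 at 186, 172 and 200.4 TPM (0.54 ± 0.12, adjusted p = 0.0442). Of all genes 1.92% differed between the wild-type clones, 0.577% higher and 1.34% lower in clone 22, and the call of Ctsh ended on leaving out any 1 library other than the third of clone 22. Without the third library of clone 22 these counts of members higher and lower became 3 and 11, 0 and 12, 6 and 11, 5 and 6, 7 and 5, and, for the wild-type pair, 2 and 2, with 32.8%, 20.4%, 35.2%, 27.1%, 41.5% and 6.86% of all genes called.

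The members lower in clone 17 than in clone 15 came from 4 of the 6 role groups, with none from V1 or the membrane group. They were Atp6v0c (-0.49), Atp6v0e (-0.49), Ctsa (-0.60), Ctsf (-2.10), Gaa (-0.58), Hexa (-0.97), Neu1 (-0.52) and Grn (-0.81). Atp6v0c, Atp6v0e and Neu1 lie on chromosome 17, whose median in this contrast was -0.39 (16.4% of genes positive). The median was -0.18 on chromosome 9, where Hexa lies, and 0.05 to 0.08 on those of Ctsa, Ctsf, Gaa and Grn. With centring per chromosome 1 member was higher and 6 lower. Hexa was at 33.4, 42.6 and 34.9 TPM in clone 15 and at 21.9, 17.6 and 15.7 TPM in clone 17, with clones 22 and 42 between them at means of 22.6 and 26.3 TPM. Ctsf fell from 4.83 to 10.4 TPM in clone 15 to 0.431 to 1.41 TPM in clone 17. Ctsh was lower in both knockout clones than in wild-type clone 22 (-0.56 and -0.78), but its differences from clone 15 were -0.03 and -0.24 and did not pass. Atp6v0a1 was higher in clone 42 than in clone 15 (0.78, adjusted p = 0.0314), at 145, 124 and 139 TPM against 73.9, 78.8 and 84.0 TPM, and was at 118, 131 and 109 TPM in clone 17.

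The 4 genes higher in clone 42 than in clone 17 were the 4 members on chromosome 17: Neu1 (0.95), Atp6v0c (0.90), Atp6v0e (0.85) and Tfeb (0.71). Atp6v0c was at 662, 680.2 and 648 TPM in clone 42 and at 350.1, 370.0 and 347 TPM in clone 17. The wild-type clones lay between, at means of 501 and 558 TPM. Neu1 followed the same order, at 94.9 ± 6.85 TPM in clone 42, 66.9 to 69.9 TPM in the wild-type means and 48.5 ± 2.21 TPM in clone 17 (SD, n = 3). Tfeb was at 12.4, 15.1 and 12.9 TPM and at 7.78, 7.77 and 7.83 TPM. Over the 592 genes tested on chromosome 17 the median difference between these clones was 0.69, and 91.0% were higher in clone 42. With each library centred per chromosome the differences of Neu1, Atp6v0c, Atp6v0e and Tfeb were 0.24, 0.19, 0.14 and 0.00, and none of the 4 passed. In that fit, where 15.6% of all genes were called, Ctsb and Gaa were lower in clone 42 (both -0.40). The 1 lower gene, Atp6v0d1 (-0.39), lies on chromosome 8, whose median was -0.33, and was at -0.04 after the same centring.

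**Figure D4:**
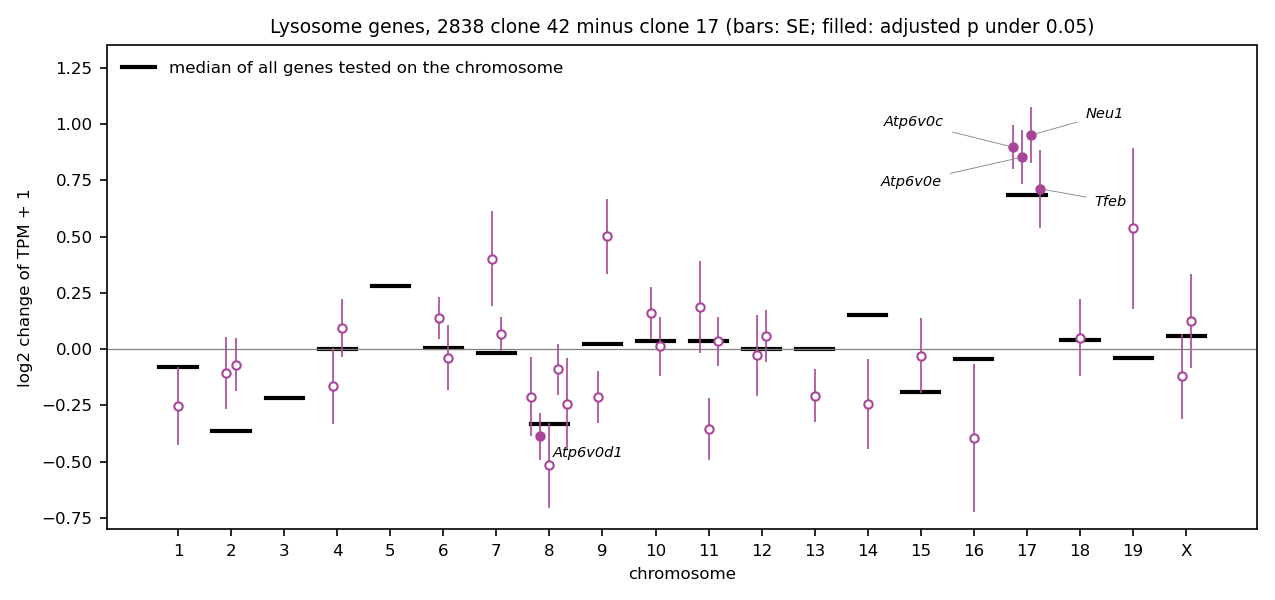
Log2 difference of TPM + 1 between clones 42 and 17 of line 2838 (y axis) with its standard error for the 35 tested lysosome genes, placed by chromosome (x axis); filled points have an adjusted p under 0.05 and black bars are the median of all genes tested on the chromosome. The 4 filled points above 0 stand on chromosome 17, whose median is 0.69, and the filled point below 0 is Atp6v0d1 on chromosome 8.

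Genes of chromosome 17 differed from the wild type in opposite directions in clones 17 and 42. Its median was -0.39 and -0.31 for clone 17 against clones 15 and 22, and 0.33 and 0.40 for clone 42. Atp6v0c was called lower in clone 17 against both wild-type clones (-0.49 and -0.65) and higher in clone 42 against clone 15 (0.41). Averaged over clones its change was -0.12, so the clone means hide opposite steps.

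Whether the lines differ in the effect of the label was asked with the difference of the 2 changes, on group means and with the spread between clones as the error. By limma 0 of 35 lysosome genes passed, against 1.10% of all genes (0.658% with a higher change in 1151 and 0.441% with a lower one), and 11 had an unadjusted p under 0.05, as did 1738 of 12458 genes. The lowest adjusted p was that of Atp6v0a1 (0.105), which was lower in 1151 (-0.88) and higher by value in 2838 (0.64). Ctsl (1.33 and -0.09) and Ctsh (-2.50 and -0.40) came next, at 0.134 and 0.155. With this same spread, 0 of the 22 members called in 1151 stayed called, Ctsh being closest at an adjusted p of 0.0620.

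Of 169 companion genes tested in 2838, 0 were called on clone means (all genes 0.0763%). By the second reading, over all 4 clone contrasts, 2 were higher and 0 lower (1.18% and 0%, all genes 0.492% and 0.517%). These were Ctse and Serpinb6a, an inhibitor of serine proteases. On clone means their limma adjusted p were 0.485 and 0.929. Ctse was at 106.9, 89.8 and 107 TPM in clone 15, at 169, 169 and 122 TPM in clone 22, at 222, 232 and 219 TPM in clone 17 and at 232, 231 and 229 TPM in clone 42. No library of one label overlapped the other, and the direction was opposite to that in 1151. Serpinb6a was at 594 to 709 TPM in the wild-type and 806 to 947 TPM in the knockout libraries, likewise without overlap. Both calls ended on leaving out any 1 library of clone 17 or 42, and after centring per chromosome. That of Serpinb6a ended also without replicate 2 or 3 of clone 15 or replicate 1 of clone 22, with median-of-ratios scaling, with no trend and with the replicate block.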

How the data were processed

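RNA was measured in 18 libraries (6 groups of 3). The authors deposited 1 gene table in TPM, a length-scaled transcript level that keeps no depth, so the depth of each library is unknown here and no counting interval is given. The submitters' processing notes name Salmon, DESeq2 and mm10; their versions and roles are not given in the sources used here. Each column matched 1 library's labels, and 0 columns were left unmapped. Gene positions are from GENCODE M21 (33998 symbols matched). Values were tested as log2(TPM + 1) with limma 3.58.1 in R 4.3.3 (lmFit, then eBayes with a trend), on genes at 1 TPM or more in at least 3 libraries of the fit, with Benjamini-Hochberg adjustment over all genes tested and a threshold of 0.05. A log2 change on this scale understates the change of low genes. Clone means were the replicates in 2838; the contrasts of single clones used its 12 libraries, and the comparison of lines used the 6 group means. The method was tested on simulated data, in which clone effects were drawn for each gene alone, without blocks of chromosomes. The outcome of that test is not given here.

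The 36 members and the companion and marker lists were chosen with earlier results of these data known. All members are named. Of the companions, the text names in 1151 up to 4 called genes with the largest rise and 4 with the largest fall in each list, where groups did not overlap and the higher group had a mean of at least 5 TPM, and in 2838 those called in all 4 clone contrasts; Tfe3 and the Lamtor genes other than Lamtor4 were added after their values were seen. Alternatives were other pseudocounts, filters, scalings and designs, and leaving out each library. One companion result that this rule names is not reported here.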

Additional observations from a re-analysis of the deposited data

Results flagged for a closer look

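Ctse had changes of opposite sign in the lines: -4.39 in 1151 and 0.87 in 2838. The 2838 value, on clone means, was not called by itself (limma adjusted p = 0.485). The difference was -5.26 ± 0.41 (SE) on the log2 scale, with a limma adjusted p of 0.0363 over all genes. Serpinb6a was lower in all 3 labelled knockout libraries of 1151 and higher in all 6 knockout libraries of 2838, with no overlap in either line. The difference of its changes was -0.62, and this did not pass (limma adjusted p = 0.375).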

How the results depend on the processing

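In 1151, 561 of 629 values of single members under the alternatives kept their sign and side of the threshold; 42 lost a call and 14 gained one. Centring per chromosome turned Atp6v1b2 to 0.19, Atp6v1e1 to -0.0697 and Atp6v0c to -0.0694. The 6 members called higher and 16 called lower became 5 to 6 and 14 to 18 on leaving out 1 library, 7 and 15 with a replicate block, and 0 and 0 on the 6 group means, where few residual degrees of freedom are left. The call of Gla also ended with no filter, with mitochondrial genes removed and with the replicate block, and those of Gla, Ctsa and Neu1 in 1 fit of all 18 libraries. Of the companions, Tpp1 and Map1lc3a lost their calls with no filter and with median-of-ratios or quantile scaling, Serpinb6a with quantile scaling, and Tpp1, Serpinb6a and Gga2 with the replicate block. The replicate numbers do not pair the libraries (same-number correlations -0.15 to -0.03 in 1151 and -0.15 to 0.20 in 2838; 0 of 6 and 13 of 36 matched best with their own number). On 2838 clone means, 0 members became 5 with the 12 libraries as replicates. Over all genes, 3 higher and 6 lower became 240 and 191 in that fit. Members lower in all 4 clone contrasts went from 1 to 3 with median-of-ratios or quantile scaling, 2 with chromosome centring, 1 with the replicate block and 0 to 3 without 1 library. Over all genes the split there was 58 higher and 61 lower, and 63 and 107 with chromosome centring. It was 80 and 113 with median-of-ratios and 94 and 121 with quantile scaling. Without the third library of clone 22 it was 174 and 283. The difference between lines called 0 members in every alternative run.

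Members higher, under alternatives: clone 17 against 15 went from 0 to 1 with median-of-ratios, quantile scaling or chromosome centring (0 to 3 without 1 library). Clone 17 against 22 stayed at 0. Clone 42 against 17 went from 4 to 0 with chromosome centring (3 to 7). Clone 42 against 15 went from 3 to 1 with median-of-ratios or chromosome centring (0 to 6). Clone 42 against 22 went from 1 to 3 with quantile scaling (0 to 5). Clone 22 against 15 went from 1 to 0 with a pseudocount of 0.1, a mean of at least 5 TPM, mitochondrial genes removed, no trend or the replicate block (0 to 2). Members lower: clone 17 against 15 ranged from 4 to 11 without 1 library. Clone 17 against 22 went from 4 to 8 with median-of-ratios and 9 with quantile scaling (1 to 12). Clone 42 against 17 went from 1 to 2 with median-of-ratios, quantile scaling or chromosome centring (0 to 5). Clone 42 against 15 ranged from 3 to 11, and clone 42 against 22 went from 3 to 5 with median-of-ratios (1 to 6). Clone 22 against 15 went from 0 to 1 with mitochondrial genes removed (0 to 2). The share of all genes called in a pair also depended on the setting. It is given above for the runs without the third library of clone 22, and for clone 42 against 17 after centring. For the other settings it is not given, so those member counts are not set against all genes. Causes were not tested.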
